A study of Mus musculus with 9 samples.

Results

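The genes described here are the cholesterol genes of mouse pancreatic stellate cells: the enzymes that make sterol, the proteins that sense it and carry it through the cell, and those that send it out. They were chosen by name from a list of 30 genes, and 29 of them have a row among the 17156 genes of the deposited count table (Hmgcs1 is not analysed here). All 29 passed the filter on low counts and were tested among 13613 genes. Stellate cells are fibroblast-like cells of the pancreas. The study grew wild-type C57BL/6J stellate lines for 4 days in 1 of 3 media, with 3 libraries per medium and ribosomal RNA removed before sequencing. MG-CM, the control, was DMEM with 5% FBS, which the labels also call Matrigel-conditioned or control medium. CM was medium conditioned by pancreatic tumour organoids, and CM-JAKi was the same medium with 500 nM AZD1480, an inhibitor of JAK kinases. Replicate 1 of each medium came from line PSC4, and replicates 2 and 3 came from PSC5-I and PSC5-II, both of line PSC5, so that the 3 replicates stand for only 2 lines. Every replicate number had its own source of conditioned medium, shared by CM and CM-JAKi, so line and source changed together. Whether CM held the same serum is not given in the sources used here, so serum and tumour products cannot be told apart in a difference from MG-CM. The p-values measure the spread between these 3 samples per medium. Control medium with the inhibitor was not analysed here, so the effect of the inhibitor in the absence of CM cannot be told apart.

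Cells build cholesterol from acetyl-CoA through mevalonate, isoprenoid units, squalene and lanosterol. The pathway is governed by SREBP2, a transcription factor made as a membrane protein of the endoplasmic reticulum. With ample sterol, INSIG proteins hold SREBP2 and its escort SCAP in that membrane. When sterol falls, SCAP carries SREBP2 to the Golgi, where it is cut, and the released part turns on the genes of synthesis and of lipoprotein uptake. In the other direction, oxysterols activate the nuclear receptors LXR alpha and LXR beta, which turn on the efflux transporters Abca1 and Abcg1 and the ubiquitin ligase Mylip, which removes lipoprotein receptors.

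Promoter windows of 250 bases before to 50 bases after the start site, from RefSeq on GRCm38.p6, were at hand for 23 of the 29 genes. Fdps, Fdft1, Sqle, Stard4, Npc1 and Abcg1 had no window. The windows were searched on both strands because SREBP2 is known to bind sterol regulatory elements beside the factor NF-Y, whose site is the CCAAT box. The element TCACNCCAC matched no window of the 23 genes and 1.24% of all 32851 windows. The letters GGTCA repeated after a gap of 4 bases matched none of them and 0.0457% of all. That gap is 1 base shorter than the one between the same letters in the LXR element, AGGTCA repeated after 4 bases. A looser element, TCACNNCA, was searched after the first gave no match, and was in 8 of the 17 windows of synthesis genes (47.1%) against 13.8% of all windows. The LXR element with its own spacing was not searched, so copies of it, exact or inexact, in Abca1 as elsewhere, would have been missed. The letters CCAAT were in 13 of the 17 windows of synthesis genes (76.5%) against 37.4% of all windows. By gene, they were in at least 1 window of 13 of the 14 synthesis genes that have one (92.9%), against 41.1% of all genes. Among the remaining members CCAAT was in 5 of 13 windows (38.5%). These shares are descriptions of letters and show no binding. The windows of 5 genes follow, each 5′ to 3′ along the gene, and the capitals mark CCAAT boxes and TCACNNCA elements on either strand. Cyp51 and Sc4mol (named Msmo1 in RefSeq) are shown because their change between CM and MG-CM was the largest among the genes from squalene onward, Srebf2 because it encodes SREBP2 itself, Mvk because it did not pass the test in any comparison although its window holds 5 CCAAT boxes, and Insig2, 1 of its 3 windows, because it moved against the rest.
Cyp51, chr5:4104648-4104947, minus strand: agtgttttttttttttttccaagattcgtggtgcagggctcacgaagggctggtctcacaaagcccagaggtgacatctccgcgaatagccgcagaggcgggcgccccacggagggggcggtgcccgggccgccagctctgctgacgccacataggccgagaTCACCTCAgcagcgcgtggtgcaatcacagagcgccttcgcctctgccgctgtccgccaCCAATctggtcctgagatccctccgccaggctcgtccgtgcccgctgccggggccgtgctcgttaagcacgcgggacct
Sc4mol, chr8:64733529-64733828, minus strand: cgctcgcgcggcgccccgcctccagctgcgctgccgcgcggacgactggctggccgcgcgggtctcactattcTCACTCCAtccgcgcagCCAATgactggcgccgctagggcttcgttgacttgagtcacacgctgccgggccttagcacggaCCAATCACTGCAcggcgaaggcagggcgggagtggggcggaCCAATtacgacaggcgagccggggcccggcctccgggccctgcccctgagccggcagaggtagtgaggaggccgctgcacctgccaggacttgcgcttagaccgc
Srebf2, chr15:82147019-82147318, plus strand: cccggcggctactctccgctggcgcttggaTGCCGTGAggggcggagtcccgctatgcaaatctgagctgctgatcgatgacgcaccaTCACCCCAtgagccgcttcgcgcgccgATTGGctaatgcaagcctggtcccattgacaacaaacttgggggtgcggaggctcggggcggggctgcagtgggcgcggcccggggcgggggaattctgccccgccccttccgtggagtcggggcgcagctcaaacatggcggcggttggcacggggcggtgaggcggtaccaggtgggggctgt
Mvk, chr5:114444019-114444318, plus strand: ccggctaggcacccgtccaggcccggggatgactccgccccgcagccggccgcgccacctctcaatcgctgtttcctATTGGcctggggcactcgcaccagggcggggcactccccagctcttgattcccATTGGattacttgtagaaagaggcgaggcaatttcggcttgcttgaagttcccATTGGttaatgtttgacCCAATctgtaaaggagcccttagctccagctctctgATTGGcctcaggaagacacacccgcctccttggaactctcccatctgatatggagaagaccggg
Insig2, chr1:121327629-121327928, minus strand: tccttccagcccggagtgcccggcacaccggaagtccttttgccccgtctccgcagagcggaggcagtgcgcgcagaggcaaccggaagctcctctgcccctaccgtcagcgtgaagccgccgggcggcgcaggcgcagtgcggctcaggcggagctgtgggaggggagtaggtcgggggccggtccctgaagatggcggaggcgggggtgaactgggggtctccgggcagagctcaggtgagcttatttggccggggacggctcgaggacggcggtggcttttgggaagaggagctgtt
Counted from the first base of its window, Cyp51 had TCACCTCA at position 163 and its CCAAT box at 222. Srebf2 had TCACCCCA at position 89 and an inverted CCAAT box at 116. Sc4mol had 3 CCAAT boxes, at positions 91, 155 and 196, the second joined by 1 shared base to TCACTGCA at 159. The Insig2 window shown, and the one beside it, held none of the letters searched, while its remaining window, chr1:121332540-121332839, held TCACATCA at position 90 and CCAAT boxes at 115, 205 and 222.

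Totals were 25625806 to 32466018 counts per library, and single values below are CPM, the usual unit of counts scaled to library depth, here with TMM factors. Counting noise is small at this depth beside the differences between replicates. Of 11 stellate and fibroblast markers all were kept by the filter (summed 5199 to 8252 CPM over the 9 libraries), but desmin (Des), a defining stellate marker, was at only 0.924 to 3.32 CPM. The pan-leukocyte gene Ptprc was at 0 to 0.0387 CPM and the epithelial gene Epcam at 0 to 0.18 CPM in every library. The macrophage list was summed at 22.8 to 35.0 CPM in the control, 34.1 to 118 in CM and 16.0 to 32.7 in CM-JAKi, with Cd14, at 12.8 to 114 CPM, making up most of it. The epithelial list was summed at 16.98 to 23.3 CPM in CM, 18.3 to 23.1 in MG-CM and 12.7 to 31.3 in CM-JAKi. The endothelial list was at 4.85 to 6.11, 2.17 to 2.64 and 7.97 to 15.7 CPM in MG-CM, CM and CM-JAKi. Within it, Emcn was at 0.531 to 0.926, 0 to 0.0328 and 3.52 to 12.8 CPM, while Kdr averaged 2.01, 1.09 and 0.938 and Pecam1 0.246, 0.38 and 0.267. The acinar list was summed at 7.65 to 8.72, 9.80 to 14.2 and 5.79 to 7.93. Acta2, the smooth muscle actin of activated stellate cells, was at 265 to 664 CPM in the control, 8.73 to 104 in CM and 253 to 580 in CM-JAKi. Dcn, decorin of the fibroblast matrix, went the other way without overlap, at 262 to 512, 1197 to 4610 and 213 to 495 CPM. The part of these shifts in the results below was not tested. In bulk RNA such as this, fewer cells of one kind and less RNA per cell cannot be told apart.

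Counts on the 29 genes together made up 0.328% to 0.37% of each MG-CM library, 0.454% to 0.616% of each CM library and 0.342% to 0.415% of each CM-JAKi library. The CM libraries stood above all the others, and CM-JAKi overlapped MG-CM. The 3 comparisons below share libraries, so their results are not independent of each other.

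The first question is what tumour organoid medium did to the sterol genes, from CM set against MG-CM. In CM most enzymes of cholesterol synthesis rose, by 1.56-fold to 2.28-fold, together with Insig1, Srebf2 and the sterol carrier Stard4. None of the 29 genes fell. Of the 29, 15 rose (adjusted p under 0.05, edgeR quasi-likelihood test with Benjamini-Hochberg adjustment), against 4.85% of all genes tested; with the replicate number as a block 19 rose, against 11.6%. No member fell by edgeR (against 5.39% of all genes, 12.8% with the block) or at an unadjusted p under 0.05 (against 14.4%). DESeq2 called 19 members higher and 0 lower, where it called 1207 and 1309 of the 13613 genes kept. The 3 CM levels were all above the 3 MG-CM levels in 20 members, which was so for 16.0% of all genes, and all below in 1, against 16.8%. The median log2 change was 0.78 over the 17 synthesis genes, 0.29 over the 3 transport genes (Stard4, Npc1 and Npc2) and 0.01 over all genes. No lipoprotein receptor is among the 29. These genes were chosen with earlier results of these data known, so their count is not independent evidence of a direction.

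Of the 6 genes of the mevalonate segment 5 rose. Fdps, which joins isoprenoid units to farnesyl diphosphate, was at 159, 196 and 235 CPM in replicates 1, 2 and 3 of the control and at 493, 348 and 353 in CM. All CM libraries lay above all controls, with PSC4 highest, and the log2 change was 1.02 ± 0.19 (SE, adjusted p = 0.017). Idi1, which interconverts the isoprenoid units themselves, averaged 97.96 ± 17.9 CPM in the control and 178 ± 38.4 in CM (SD, n = 3), and its change was 0.87 ± 0.20. The thiolase Acat2 and the kinase Pmvk rose by 0.64 ± 0.14 and 0.73 ± 0.14, and the decarboxylase Mvd by 0.78 ± 0.20. Mvk, mevalonate kinase and the step before Pmvk, was the exception. It was at 52.3, 60.4 and 63.6 CPM in the control and 62.7, 54.6 and 61.7 in CM, with overlapping groups, a change of 0.02 and a 95% interval from -0.22 to 0.27.

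Of the 11 genes from squalene onward 7 rose, and 9 with the replicate block. Cyp51, the lanosterol demethylase, was at 266, 226 and 296 CPM in the control and 885, 468 and 439 in CM. The groups did not overlap, PSC4 stood far above the PSC5 libraries in CM, and the change of 1.19 ± 0.27 (adjusted p = 0.0289) was the highest among the 29 genes. The next 2 enzymes that strip methyl groups, Sc4mol and Nsdhl, rose by 1.00 ± 0.23 and 0.94 ± 0.17. Lss, which folds the squalene epoxide into lanosterol, averaged 162 ± 40.3 CPM in the control and 310 ± 65.4 in CM. Fdft1, squalene synthase, rose by 0.65 ± 0.13, the sterol reductase Tm7sf2 by 0.86 ± 0.16, and the desaturase Sc5d by 0.84 ± 0.20. Sqle, the epoxidase that commits squalene to sterol, was at 175, 192 and 232 CPM in the control and 325, 264 and 266 in CM. The Sqle groups did not overlap either, yet it narrowly missed the threshold (change 0.51 ± 0.14, adjusted p = 0.0532, 0.028 with the block). Dhcr7, the reductase of the last step, changed by 0.49 ± 0.14 (adjusted p = 0.0597, 0.0376 with the block). Neither Hsd17b7 (0.33 ± 0.15, adjusted p = 0.198) nor the isomerase Ebp (0.08 ± 0.13, adjusted p = 0.75) passed with either fit.

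**Figure D1:**
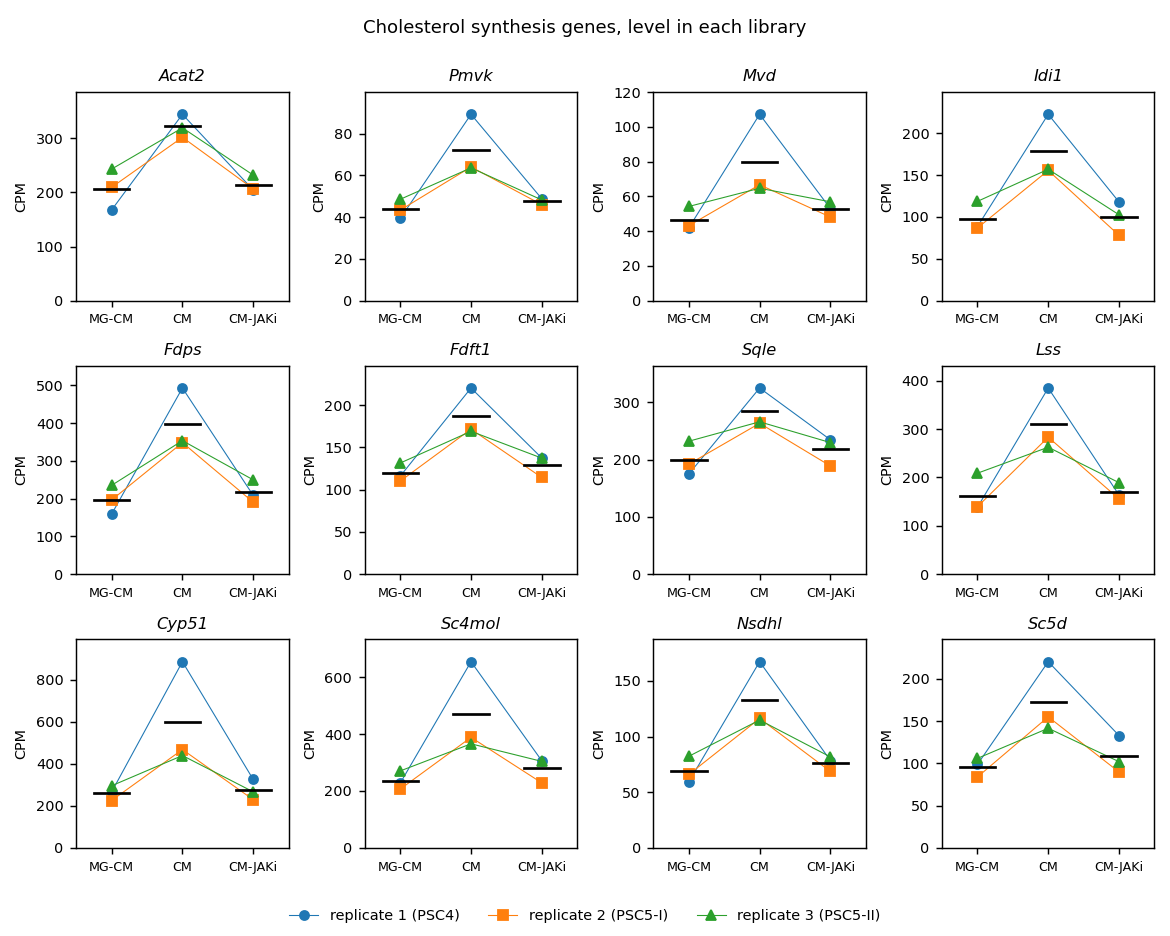
Level of 12 synthesis genes in CPM (linear axis from 0) in each of the 9 libraries. Points joined by a line share a replicate number, with its line named in the key, and black bars are group means (n = 3). In each panel all CM points lie above the MG-CM and CM-JAKi points, and the PSC4 library is highest in CM, at 885 CPM for Cyp51. The synthesis genes Mvk, Tm7sf2, Hsd17b7, Ebp and Dhcr7 are not drawn. In each of them CM overlapped MG-CM, CM-JAKi or both.

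The genes that control SREBP2 were split. Insig1, itself a target of SREBP2 and the retainer that limits it, was at 245, 224 and 271 CPM in the control and 508, 387 and 351 in CM, without overlap (change 0.75 ± 0.19, adjusted p = 0.0369). Srebf2 rose by less, from 208 ± 20.8 to 290 ± 17.2 CPM (0.48 ± 0.11, adjusted p = 0.0281). Scap, the escort, was at 121 to 142 CPM in CM and 137 to 154 in MG-CM, with a change of -0.09 and an interval from -0.30 to 0.11. The second retainer, Insig2, was at 45.7, 44.0 and 44.98 CPM in the control and 32.4, 37.4 and 42.7 in CM. Its groups did not overlap, with CM below, but the change of -0.26 ± 0.14 did not pass (adjusted p = 0.251, 0.0937 with the block).

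Among the genes of sterol movement, Stard4, which carries free sterol between membranes, was at 62.6, 55.0 and 76.6 CPM in the control and 113, 99.3 and 114 in CM. The CM libraries were all higher, and the change was 0.75 ± 0.14 (adjusted p = 0.0175). Npc1 and Npc2 work together to move cholesterol out of lysosomes. Npc2 was at 496, 501 and 443 CPM in the control and 639, 593 and 533 in CM, without overlap. It missed the threshold (0.29 ± 0.11, adjusted p = 0.118) and passed with the block (0.0309) and by DESeq2 (0.0331). Npc1 overlapped between the groups, with a change of -0.09 and an interval from -0.33 to 0.15.

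The LXR side was less uniform. Of the 3 targets among the members 0 were called by edgeR without the block. Abca1 was higher at an unadjusted p under 0.05, by DESeq2 (adjusted p = 0.0252) and by edgeR with the block (0.0106). Abca1, which loads cholesterol onto apolipoproteins outside the cell, was at 158, 79.3 and 87.3 CPM in the control and 228, 162 and 171 in CM. CM libraries were higher in 3 of 3 pairs and the lowest of them was above the PSC4 control, with a change of 0.79 ± 0.27 (adjusted p = 0.0956). With single libraries of the 2 groups left out, Abca1 was called in 1 of 6 edgeR fits, without MG-CM replicate 1 (adjusted p = 0.0227). In the others its adjusted p was up to 0.2765. Abcg1, its partner in efflux to lipoprotein particles, was low, at 1.92 to 2.77 CPM in the control and 3.22 to 4.66 in CM (0.84 ± 0.40, adjusted p = 0.214). Mylip overlapped between the groups and changed by -0.07, with a wide interval from -0.83 to 0.69. The receptors themselves were not called: Nr1h2 (LXR beta) was at 43.1 to 45.9 CPM in the control and 45.7 to 49.2 in CM, and Nr1h3 (LXR alpha) at 2.16 to 2.92 and 2.17 to 3.66. The median change of the 3 LXR targets, 0.79, was thus as high as that of the synthesis genes, 0.78, with a larger standard error per gene; the difference between these lists was not tested.

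**Figure D2:**
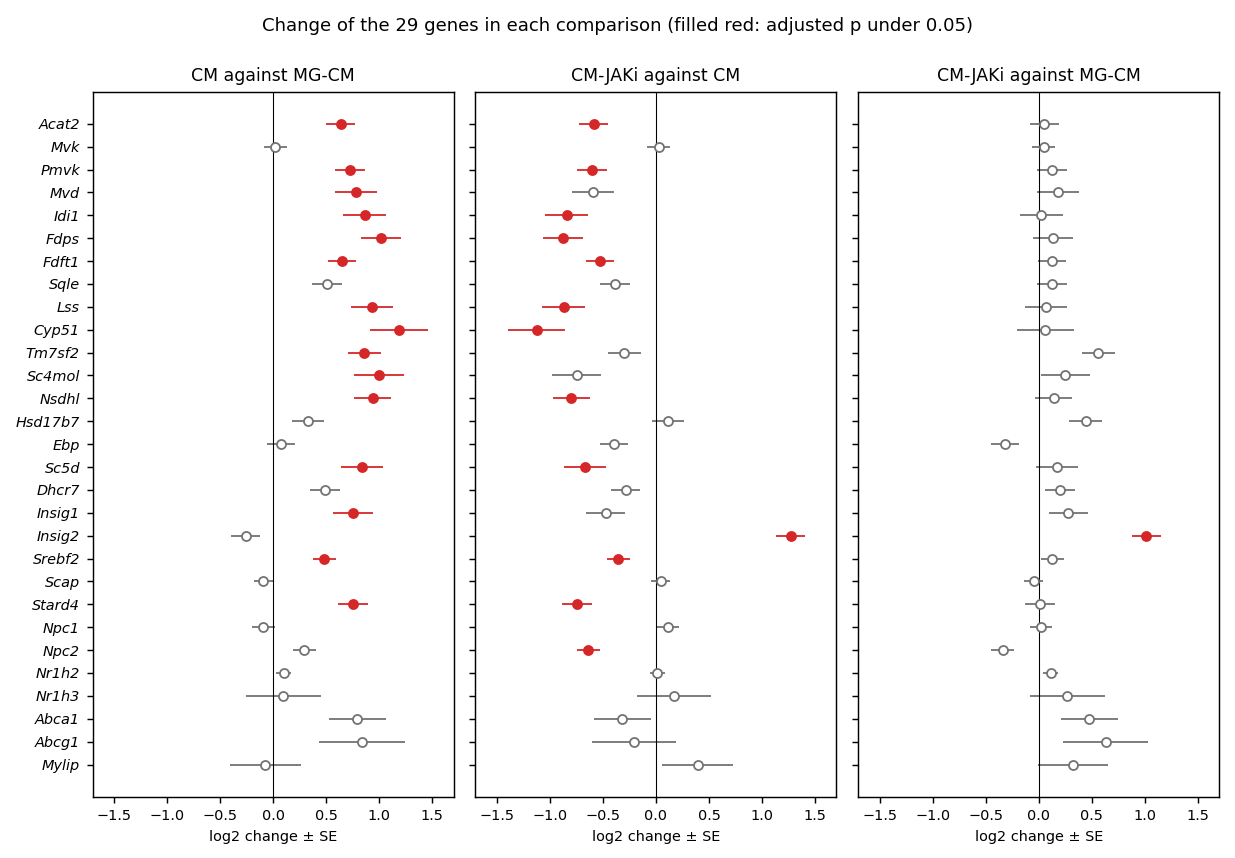
Log2 change with its standard error for the 29 genes in the 3 comparisons, ordered by role from the mevalonate segment at the top to the LXR targets at the bottom. Filled red points have an adjusted p under 0.05 without the block. In the left panel 15 genes are higher, in the middle panel 12 are lower and Insig2 is higher, and in the right panel only Insig2 is filled.

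These calls in CM rest on few libraries. Leaving out MG-CM replicate 2 ended all 15 (adjusted p 0.0743 to 0.149), although the changes were still 0.40 to 1.09, and with the block 9 members were called without that library. Leaving out MG-CM replicate 1 or CM replicate 1 ended 8 calls each (adjusted p 0.0526 to 0.0994 and 0.0524 to 0.102), MG-CM replicate 3 ended 6 (0.0577 to 0.0675), CM-JAKi replicate 3 ended 4 (0.0512 to 0.0615), CM replicate 2 ended 2 (0.0543 and 0.0595), and CM replicate 3, CM-JAKi replicate 1 and CM-JAKi replicate 2 ended 1 each (0.0509, 0.0502 and 0.0618).

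The second question is what blocking JAK kinases did in the same medium, from CM-JAKi set against CM. With the inhibitor most synthesis genes that were high in CM were lower, down to 0.459-fold of their CM level for Cyp51, and Stard4 and Npc2 fell as well. One gene went the other way: Insig2 rose 2.41-fold. Of the 29 members 12 fell, against 8.93% of all genes, and 1 rose, against 10.1%; with the block 15 fell, against 15.6%, and the same 1 rose, against 18.6%. DESeq2 called 17 lower and 1 higher, where it called 1727 and 1816 of the 13613 genes kept. The 3 CM-JAKi levels were all below the 3 CM levels in 16 members, which was so for 18.3% of all genes, and all above in 1, against 20.1%. The median log2 change was -0.60 over the 17 synthesis genes and 0.01 over all genes.

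In the mevalonate segment 4 of 6 genes fell. Fdps was at 209, 191 and 250 CPM in CM-JAKi, below each of its CM libraries (493, 348 and 353), and fell by 0.88 ± 0.19 (adjusted p = 0.015). Idi1, at 118, 78.0 and 103 CPM, fell by 0.84 ± 0.20, Pmvk by 0.60 ± 0.14 and Acat2 by 0.59 ± 0.14. Mvd did not overlap its CM libraries but missed the threshold (-0.60 ± 0.20, adjusted p = 0.0658, 0.0536 with the block, 0.0241 by DESeq2). Mvk was at 61.0, 54.4 and 66.6 CPM, overlapping its CM levels, with a change of 0.02 and an interval from -0.22 to 0.27.

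From squalene onward 5 of 11 genes fell, and 7 with the block. Cyp51 was at 326, 229 and 267 CPM in CM-JAKi, all below the lowest CM library (439), and fell by 1.13 ± 0.27 (adjusted p = 0.0231). Nsdhl, Lss, Sc5d and Fdft1 fell by 0.80 ± 0.17, 0.87 ± 0.20, 0.67 ± 0.20 and 0.53 ± 0.13. Sc4mol was at 306, 228 and 304 CPM and missed the threshold (-0.75 ± 0.23, adjusted p = 0.0533), but passed with the block (0.0246) and by DESeq2 (0.00909). Ebp was at 91.2, 83.4 and 85.6 CPM in CM and 80.3, 59.8 and 57.4 in CM-JAKi (-0.40 ± 0.13, adjusted p = 0.0634, 0.00968 with the block and 0.0256 by DESeq2). Sqle (-0.39 ± 0.14, adjusted p = 0.0873, 0.0503 with the block, 0.0406 by DESeq2), Tm7sf2 (-0.30 ± 0.16, adjusted p = 0.204) and Dhcr7 (-0.29 ± 0.14, adjusted p = 0.182) did not pass by edgeR. Hsd17b7 had its means in the other order, at 86.1 ± 11.8 CPM in CM and 93.1 ± 13.5 in CM-JAKi (SD, n = 3), with overlapping groups.

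The control genes showed the sharpest contrast. Insig2 was at 84.2, 79.4 and 108 CPM in CM-JAKi, against 32.4, 37.4 and 42.7 in CM, so the lowest inhibited library was above every library of both other groups. Its change was 1.27 ± 0.14 (adjusted p = 9.18e-04), higher in 3 of 3 pairs by 1.38, 1.08 and 1.33, and it was called without each single library of the 2 groups. Insig1, its close relative, was at 374, 252 and 271 CPM against 508, 387 and 351 and missed the threshold (-0.48 ± 0.18, adjusted p = 0.105, 0.0308 with the block and 0.0498 by DESeq2). Srebf2 fell by 0.36 ± 0.11, right at the threshold (adjusted p = 0.0499). Scap did not move beyond its error (0.05 ± 0.09, adjusted p = 0.753).

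Stard4 was at 69.9, 55.3 and 69.7 CPM in CM-JAKi and fell by 0.74 ± 0.14 (adjusted p = 0.00962). Npc2 was at 412, 367 and 357 CPM, below every library of CM and of MG-CM, and fell by 0.64 ± 0.11 (adjusted p = 0.00682). With Insig2 these 2 were the 3 members called without each single library of the groups compared. Npc1 did not follow Npc2: it was at 83.6, 98.9 and 76.0 CPM in CM and 98.8, 94.7 and 85.6 in CM-JAKi (0.11 ± 0.11, adjusted p = 0.499).

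Abca1, Abcg1 and Mylip, the LXR targets among the members, were not called with either edgeR fit, at an unadjusted p under 0.05 or by DESeq2. Lpcat3, a known LXR target outside the members, was called lower and is given below. Abca1 was at 166, 120 and 165 CPM in CM-JAKi, between its MG-CM and CM means, with a change of -0.32 and an interval from -0.92 to 0.29. Abcg1 (-0.21 ± 0.40) and Mylip (0.39 ± 0.33) overlapped between the groups. In Mylip the PSC4 pair stood apart, at 40.9 CPM in CM and 74.7 in CM-JAKi, while the PSC5 libraries were at 30.9 to 40.7 in both media. The intervals of Abca1 and Abcg1 (-1.11 to 0.69) include the median change of the synthesis genes, -0.60, so a fall of that size in these transporters lies within their error. The interval of Mylip, from -0.36 to 1.15, does not include it.

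**Figure D3:**
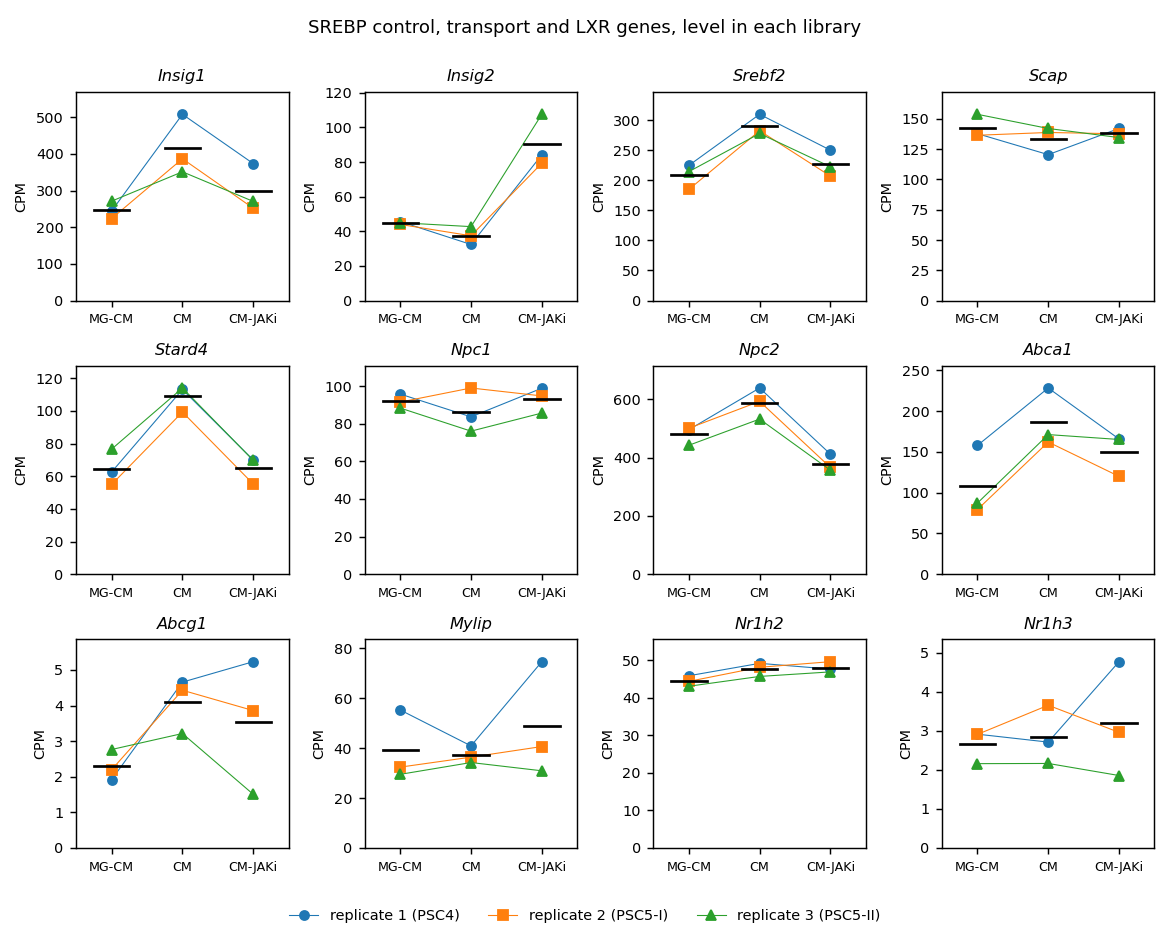
Level of the SREBP control, transport and LXR genes in CPM (linear axis from 0) in each library, drawn as for the synthesis genes. Insig2 is highest in all 3 CM-JAKi libraries (79.4 to 108 CPM), Stard4 is highest in CM, Npc2 is lowest in CM-JAKi, and Abcg1, Mylip and Nr1h3 have no order of the 3 media that all replicates share.

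Some of these calls depended on 1 library too. Leaving out CM-JAKi replicate 2 ended 10 of the 13 calls (adjusted p 0.0643 to 0.171). Leaving out CM replicate 1 or CM-JAKi replicate 3 ended 6 each (0.0522 to 0.133 and 0.0528 to 0.122), CM replicate 2 or MG-CM replicate 3 ended 2 each (0.0609 and 0.0814, and 0.0627 and 0.0743), and CM replicate 3, MG-CM replicate 1 and MG-CM replicate 2 ended 1 each (0.074, 0.0557 and 0.0576).

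The last comparison, CM-JAKi with MG-CM, asks how far the inhibited cells still differed from cells in control medium. Little of the sterol programme did. None of the 17 synthesis genes was called by edgeR, with or without the block, or by DESeq2. At an unadjusted p under 0.05, 2 of them were higher and 1 lower, against 5.36% and 5.31% of all genes. Their median change was 0.12. Insig2 was the only member called, 1 of 29 against 0.286% of all genes called higher, with 0 lower against 0.720%. With the block the counts were again 1 and 0, against 1.85% and 2.40%. It was 2.01-fold higher (1.01 ± 0.14, adjusted p = 0.0137), but leaving out MG-CM replicate 2 or 3 ended the call (adjusted p = 0.0626 and 0.0671). For Cyp51 the change was 0.06 ± 0.27, for Fdps 0.14 ± 0.19, and for Stard4 0.01 ± 0.14. These misses do not show equal levels, since genes of this spread could differ by the size of their intervals. Tm7sf2 was at 13.1, 11.5 and 14.4 CPM in CM-JAKi, above all its controls (9.30, 8.26 and 8.91), without a call (0.56 ± 0.16, adjusted p = 0.18, 0.0732 with the block). Npc2 lay below all its controls (-0.34 ± 0.11, adjusted p = 0.26, 0.0538 with the block) and was called lower by DESeq2 (adjusted p = 0.0322). The LXR targets were not called and overlapped their controls, with a median change of 0.475. The changes were 0.475 ± 0.27 for Abca1 (adjusted p = 0.61), 0.63 ± 0.40 for Abcg1 (0.673) and 0.32 ± 0.33 for Mylip (0.843). Their intervals were wide, at -0.13 to 1.08, -0.29 to 1.54 and -0.44 to 1.08. Levels without overlap were seen in 4 members above and 1 below, against 8.87% and 8.24% of all genes.

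The synthesis genes also varied together from library to library. Relative to each gene's own mean over the 9 libraries, the 17 genes averaged 0.71, 0.27 and 0.25 log2 units in CM replicates 1, 2 and 3, -0.38, -0.36 and -0.08 in MG-CM, and -0.04, -0.30 and -0.07 in CM-JAKi. All CM libraries were above 0, the remaining 6 below. As a description over 9 libraries that share their media, 13 of the 17 genes had a Pearson r of at least 0.9 with the mean of the other synthesis genes, from Fdft1 at 0.99 down to Acat2 at 0.91 among these. Tm7sf2 was at 0.84, Hsd17b7 at 0.54, Ebp at 0.37 and Mvk at 0.32. Outside synthesis, Insig1 (0.94), Stard4 (0.92) and Srebf2 (0.91) followed the same profile, while Insig2 (-0.46), Scap (-0.50) and Npc1 (-0.45) ran against it. Abca1 was at 0.68, Abcg1 at 0.55 and Mylip at -0.10. The 3 LXR targets averaged 0.44, 0.20 and 0.04 in CM, -0.01, -0.53 and -0.43 in MG-CM, and 0.63, 0.04 and -0.38 in CM-JAKi. In each medium PSC4 was the highest of the 3 replicates for these targets, and the CM and CM-JAKi values overlapped.

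**Figure D4:**
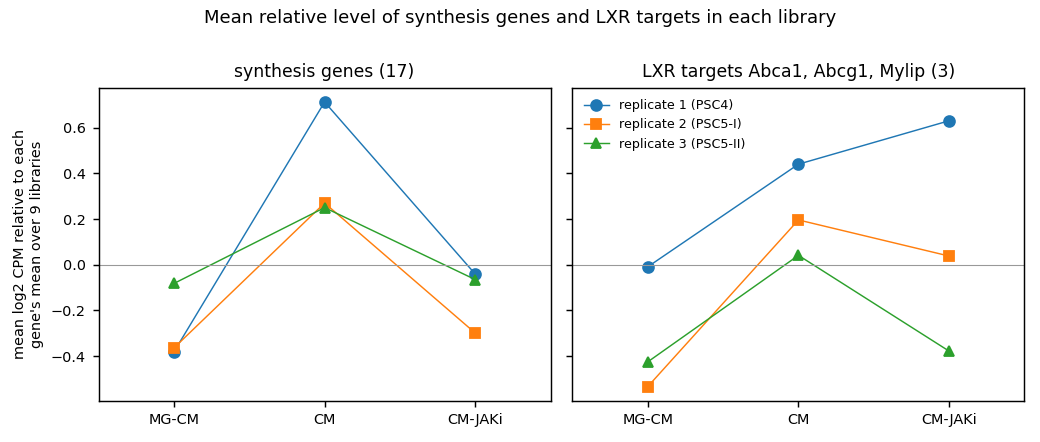
Mean log2 CPM of the 17 synthesis genes (left) and of the 3 LXR targets (right), each gene taken relative to its own mean over the 9 libraries. Lines join libraries of one replicate number. The synthesis genes are above 0 in all CM libraries (0.25 to 0.71) and below it elsewhere, while the LXR targets keep no common order between CM and CM-JAKi.

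The size of the CM difference was graded over the replicate pairs. In size, the change was largest in the PSC4 pair, then PSC5-I, then PSC5-II in 16 of the 17 synthesis genes, and in 16 of 17 its direction was the same in all pairs. The median change was 1.16, 0.64 and 0.39 in the 3 pairs. For Cyp51 it was 1.73, 1.05 and 0.57, and for Fdps 1.63, 0.83 and 0.59. The exception to the order was Ebp, at 0.03, 0.07 and 0.14. Mvk was the gene whose direction differed, at 0.26, -0.15 and -0.04. The order of the controls differed between genes. In 9 of the 17 (Fdps, Acat2, Nsdhl, Pmvk, Sqle, Mvk, Mvd, Lss and Dhcr7) the MG-CM level was lowest in PSC4 and highest in PSC5-II, as for Fdps at 159 and 235 CPM. In 6 it was lowest in PSC5-I and highest in PSC5-II, and Tm7sf2 and Ebp were highest in PSC4. The difference in CM effect between PSC5 and PSC4 rests on 1 PSC4 library per medium. Its spread would come from PSC5 alone, so sizes are given without a p-value. PSC5 minus PSC4 was -0.71 for Pmvk and -0.93 for Cyp51, with the larger change in PSC4, and 0.63 for Mylip. For the inhibitor effect the same differences were 0.43, 0.57 and -0.85. PSC4 is 1 library per medium with its own medium source, so line and source cannot be told apart.

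**Figure D5:**
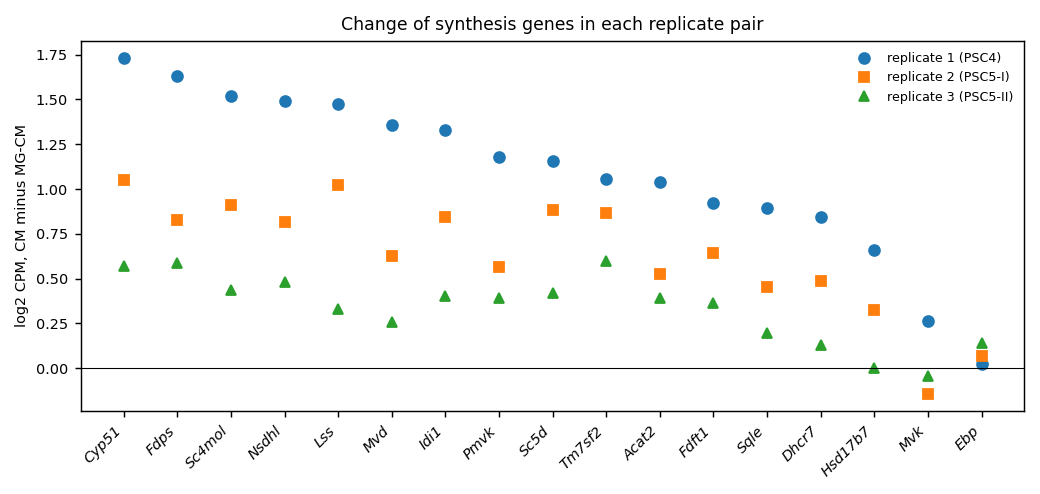
Log2 CPM in CM minus MG-CM within each replicate pair, for the 17 synthesis genes ordered by the PSC4 value. The PSC4 point is highest in 16 genes, with Ebp the exception, and the PSC5-I point lies above the PSC5-II point in all but Mvk and Ebp, as at 1.73, 1.05 and 0.57 in Cyp51.

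Without the replicate 1 libraries, the block fit called 16 members higher in CM and 17 lower in CM-JAKi than in CM. Of all 13603 genes it tested, it called 2788 and 4193 in these comparisons, with both directions counted together. The share of all genes in the direction of the members is not given for these fits. Without the replicate 2 libraries the member counts were 1 and 2, and the counts in both directions over all 13641 genes fell to 480 and 1432.

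A list of 41 other genes around the pathway was tested in the same fits. In CM 5 rose and 1 fell, against 4.85% and 5.39% of all genes; with the block 14 rose and 2 fell, against 11.6% and 12.8%. In CM-JAKi against CM 2 rose and 8 fell, against 10.1% and 8.93%, or 3 and 15 with the block, against 18.6% and 15.6%. In CM-JAKi against MG-CM none was called by edgeR without the block. With the block 2 were higher and 1 lower, against 1.85% and 2.40% of all genes. By DESeq2 1 was higher and 0 lower, where it called 198 and 314 of all genes. Among the 41 were receptors of lipoprotein uptake. Lrp8, a lipoprotein receptor that also binds reelin, was at 42.3, 31.0 and 40.9 CPM in the control, 96.3, 61.3 and 55.2 in CM and 30.3, 22.4 and 25.2 with the inhibitor. It was highest in every CM library and lowest in every inhibited one, with changes of 0.90 ± 0.22 (adjusted p = 0.0387) in CM and -1.45 ± 0.23 (adjusted p = 0.00507) with the inhibitor. Vldlr, a related receptor, was at 20, 32.2 and 21.8 CPM in the control, 123, 62.0 and 27.0 in CM and 14.9, 21.0 and 16.6 with the inhibitor. PSC4 was far above the other CM libraries, the groups MG-CM and CM overlapped, and only the inhibitor comparison passed (-2.01 ± 0.47, adjusted p = 0.0215).

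Genes of sterol storage and of the membrane were also called. Soat1, which esterifies cholesterol for storage, was at 196, 169 and 188 CPM in the control, 296, 235 and 239 in CM and 156, 140 and 147 with the inhibitor, rising by 0.48 ± 0.11 and then falling by 0.80 ± 0.11 (adjusted p = 0.0313 and 0.00307). Scarb1, a lipoprotein receptor for selective cholesterol transfer, rose by 0.51 ± 0.13 and fell by 0.48 ± 0.13, and Aacs, which activates acetoacetate for synthesis, rose by 0.52 ± 0.13 and fell by 0.62 ± 0.13. Lpcat3, a phospholipid-remodelling enzyme and known LXR target, rose by 0.63 ± 0.11 (adjusted p = 0.015) and fell by 0.39 ± 0.11 (0.0432). Coq2, of the ubiquinone branch, fell by 0.61 ± 0.13 with the inhibitor. Acat1, the mitochondrial thiolase, ran opposite to Acat2: it was at 106, 103 and 89.9 CPM in the control, 71.7, 68.5 and 73.0 in CM and 116, 94.2 and 101 with the inhibitor. It fell by 0.49 ± 0.10 in CM (adjusted p = 0.0218) and rose by 0.54 ± 0.10 with the inhibitor (adjusted p = 0.00854). Ggps1, which makes geranylgeranyl diphosphate and is named after its values were seen, fell by 0.29 ± 0.09 (adjusted p = 0.0494). Lipa, the lysosomal lipase that frees cholesterol from esters, rose by 0.43 ± 0.10 with the inhibitor (adjusted p = 0.018). Leaving out MG-CM replicate 2 left 0 of these 41 genes called in CM, and leaving out CM-JAKi replicate 2 left 2 higher and 2 lower with the inhibitor.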

How the data were processed

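The deposited table holds expected counts per gene made by the authors. They are whole numbers, not scaled between libraries, and were read as rounded estimates because RSEM is named. Per the submitters' processing notes, RSEM 1.2.29, STAR 2.5.1b and DESeq2 were used, with NCBIM37 and mm9 as builds and no roles given. Any filter before deposit is not given in the sources used here. Here R 4.3.3 with edgeR 4.0.16 and DESeq2 1.42.0 was used. Genes passing filterByExpr (minimum count 10, minimum total 15) were scaled by TMM and tested in one robust quasi-likelihood fit over 9 libraries with a term per group. P-values were Benjamini-Hochberg adjusted over all 13613 genes kept, and standard errors were taken from the F statistic. CPM are these counts scaled by the TMM-adjusted library totals. Log2 levels used a prior count of 2. The fit was tested on simulated data first. Members, lists and named genes were chosen with earlier results of these data known. All members were named, and of the other pathway genes up to 8 called per comparison, by smallest p; a gene so named may also be given in another comparison, and a gene outside this rule is marked.

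Libraries of the same replicate number share a line and, in CM and CM-JAKi, a medium source. After group means were removed they correlated at 0.291 to 0.68 in 9 same-number pairs and at -0.536 to 0.279 in 18 other pairs, so the number pairs them. The block fit, DESeq2, other scalings, no filter, a cell line term, the 2 groups alone and leaving out libraries were the alternatives. Replicates of a group differed by chi-square values of 16.0 to 115 per degree of freedom, so none was a repeat of another.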

Additional observations from a re-analysis of the deposited data

How the results depend on the processing

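No called member changed direction under any alternative run. The number of members higher in CM was 15 and was 19 by DESeq2, with the cell line term and with the replicate block. It was 9 with only the 2 groups in the fit and 0 to 14 with libraries left out, singly or by replicate number. With the replicate block it was 1 without the replicate 2 libraries and 9 without MG-CM replicate 2, in fits added after the data were seen. The number lower in CM-JAKi than in CM was 12, and it was 0 to 14 with libraries left out and 2 with the block and without the replicate 2 libraries. Against MG-CM, members higher numbered 1, with 0 to 1 when libraries were left out and 2 with the block and without replicate 1. Members lower numbered 0, with 1 by DESeq2, 0 to 1 when libraries were left out and 2 with the block and without replicate 1. No called member of the first comparison kept its call in every single-library omission. The replicate block changed no member call other than those given beside the results.

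Over all genes, 1394 were called in CM against MG-CM. The count was 2516 by DESeq2, 3216 with the cell line term, 793 with the 2 groups alone, 3325 with the replicate block and 8 to 1713 with libraries left out. With the block it was 2788 without replicate 1 and 480 without replicate 2. For CM-JAKi against CM the count was 2585. It was 4532 with the line term, 1655 with the 2 groups alone, 4655 with the block and 256 to 2970 with libraries left out. With the block it was 4193 without replicate 1, 1432 without replicate 2 and 4033 without MG-CM replicate 2. For CM-JAKi against MG-CM it was 137. It was 512 by DESeq2, 523 with the line term, 579 with the block and 0 to 465 with libraries left out, and with the block 995 without replicate 1 and 245 without MG-CM replicate 2. By library size alone the share of calls that were higher moved from 47.3% to 35.8% in CM and from 53% to 68.2% in CM-JAKi against CM. The median of all genes moved from 0.01 to -0.07 and to 0.10 there, with 15 members higher and 10 lower. The cause was not tested. The lowest levels among the members are those of Abcg1 and Nr1h3, under 6 CPM in every library; what depth adds to their error was not tested.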
